A study of Mus musculus with 7 samples.

Results

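Oxidative phosphorylation (OXPHOS) genes encoded in the nucleus were compared between cortical neuron cultures given a control hairpin and untransduced cortical neuron cultures. The genes were those whose symbol starts with *Ndufa*, *Ndufb*, *Ndufc*, *Ndufs*, *Ndufv*, *Sdha*, *Sdhb*, *Sdhc*, *Sdhd*, *Uqcr*, *Cox4*, *Cox5*, *Cox6*, *Cox7*, *Cox8* or *Atp5*. The array annotates 185 probe sets to a single gene of this kind, 94 genes in all. Of these probe sets, 29 had a name that marks cross-hybridising probes (_x) and 22 stayed under an intensity of 50 on all arrays, which left 134 of the 22748 probe sets tested and 90 of the 12315 genes. These were 78 subunits and 12 assembly factors (*Ndufaf* and *Sdhaf* genes), which share the first letters of the subunits' symbols. *Cox4i2*, *Cox7b2*, *Cox8b* and *Ndufb4* had no probe set that passed, with highest values of 39.2, 15.4, 47.4 and 13.5. Just outside the limit of 50 stood a minor probe set of *Uqcrq* at 49.5, and just inside it a minor probe set of *Atp5j2* at 50.7. A gene with several probe sets is represented by the one with the highest mean level. *Cox7c* is therefore read from a probe set near the limit, since its other probe set without _x stayed at 19.1 or less.

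OXPHOS is the process by which mitochondria turn the energy of nutrients into ATP. Complex I (NADH dehydrogenase) and complex II (succinate dehydrogenase) feed electrons to coenzyme Q, complex III passes them to cytochrome c, and complex IV (cytochrome c oxidase) hands them to oxygen, while the proton gradient that complexes I, III and IV build drives complex V, the ATP synthase. Most subunits are encoded in the nucleus and imported, the core of complexes I, III, IV and V also holds subunits encoded in mitochondrial DNA, and neurons depend on this pathway for the ATP that ion pumping and synaptic transmission use.

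The cells came from the cortex of C57/Bl6J embryos at day 16 and were kept for 16 days in vitro. Of the cultures, 4 (called luciferase) had received a lentivirus with a short hairpin against luciferase, a gene that mice do not have, driven by the human H1 promoter, and RNA was taken 2 weeks later. The 3 other cultures (called blank) were naïve, that is, untransduced, by their treatment label and the methods, although a free-text label shared by both groups reads "2 week shRNA treatment". The groups thus differ in the virus, the green fluorescent protein it expresses and the hairpin at once, and the parts of these cannot be told apart. The methods describe cultures randomised over plates and name no separate litters, and the authors had removed 1 untransduced sample that failed quality control, so the p-values rest on the spread among these cultures alone, part of which may be technical. The blank columns of the deposited table sit 1 row low and were moved up (r = 0.995 between the log2 group means, against 0.421 as deposited). After this move the arrays of a group correlated at 0.989 or more with each other on average, with blank replicate 7 the lowest, and the median intensity of the tested probe sets was 237 to 241 across luciferase arrays and 216 to 235 across blank arrays. Defining neuron markers were present at high levels in both groups, with summed intensities over 11 markers of 49070 to 51310 across luciferase arrays and 46900 to 50820 across blank arrays. Since array intensity depends on the probes, levels are compared between groups, and intensities of different genes are set side by side only to sort probe sets into bright and dim.

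The promoters of 3 genes are shown because the results turn on them: *Cox6b2*, the gene with the largest change, *Cox6b1*, its partner isoform, and *Ndufb7*, the complex I subunit with the largest fall. Each run holds the 250 bases before the start of the gene, 5′ to 3′ along the strand of the gene, from RefSeq (GRCm38.p6), at chr7:4753095-4753344 (minus strand) for *Cox6b2*, chr7:30626115-30626364 (minus strand) for *Cox6b1* and chr8:83566508-83566757 (plus strand) for *Ndufb7*. Capitals mark the letters CCGGAAG, a core bound by ETS factors such as GABP (also called NRF2 in mitochondrial biology), or their reverse complement CTTCCGG.
Cox6b2: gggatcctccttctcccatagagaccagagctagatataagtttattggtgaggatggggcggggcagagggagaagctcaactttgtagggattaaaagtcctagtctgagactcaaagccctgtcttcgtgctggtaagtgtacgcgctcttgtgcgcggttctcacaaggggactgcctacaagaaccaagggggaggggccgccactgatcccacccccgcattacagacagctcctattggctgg
Cox6b1: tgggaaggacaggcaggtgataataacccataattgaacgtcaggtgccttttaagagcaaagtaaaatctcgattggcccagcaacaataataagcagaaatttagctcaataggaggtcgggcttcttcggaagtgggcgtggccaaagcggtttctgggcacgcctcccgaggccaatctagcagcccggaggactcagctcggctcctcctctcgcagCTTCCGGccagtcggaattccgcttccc
Ndufb7: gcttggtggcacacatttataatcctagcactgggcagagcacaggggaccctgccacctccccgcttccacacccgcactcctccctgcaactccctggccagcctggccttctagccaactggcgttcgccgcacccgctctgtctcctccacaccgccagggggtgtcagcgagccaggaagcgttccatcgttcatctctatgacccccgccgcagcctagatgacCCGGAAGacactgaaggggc
*Cox6b1* and *Ndufb7* each hold the letters once, 28 and 20 bases before the start, and *Cox6b2* does not hold them. Promoter sequence over 300 bases (250 before and 50 after the start) was at hand for 75 of the 90 genes. CCGGAAG on either strand was in 22 of these 75 (29.3%), against 8.86% of all 32851 promoters and 11.6% of those of coding genes. The palindromic motif of NRF1 was in 6 (8%, against 0.971% of all and 1.33% of coding genes), and AAGATGGC, the motif of YY1, in 10 (13.3%, against 2.75% of all and 3.05% of coding genes). Of the 9 genes with sequence that passed the test below, 5 held CCGGAAG (*Ndufaf8*, *Ndufb7*, *Sdhaf1*, *Sdhaf3* and *Uqcr11*), 0 the NRF1 motif and 1 the YY1 motif (*Ndufaf8*). A match of letters is a description of the window and not a binding site.

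Most OXPHOS genes did not differ detectably between luciferase and blank cultures. At an adjusted p of at most 0.05 (limma, Benjamini-Hochberg adjustment over all 22748 probe sets), 8 of the 90 genes were higher in luciferase cultures, 2 were lower and 80 did not pass, so 11.1% passed where 25.4% of all genes did. Among all genes 16.9% were higher and 8.55% lower. The groups did not overlap, meaning that all luciferase arrays lay above or all below the blank arrays, in 31 of the 90 genes, against 37.5% of all genes. In 88 of the 90 genes the 95% interval of the log2 change lay within 1.5-fold in both directions, against 83.3% of all genes, and the exceptions were *Cox6b2* and *Cox8c*. Among other gene sets, such an interval was found in 100% of 46 proteasome genes, 96.1% of 76 genes of the mitochondrial ribosome and 95.2% of 42 of the cytosolic ribosome. Since most OXPHOS genes had bright probe sets, the counts were repeated at like intensity. Of the 71 OXPHOS genes with a mean intensity of 1000 or more, 3 passed and all 71 had such an interval, against 20.6% and 91.8% of all genes at that level. Counted by probe set, 11 of 134 were higher and 3 lower (10.4%, against 24.5% of all probe sets, 16.2% higher and 8.26% lower), with no overlap in 46 (34.8% of all). Of the 134 probe sets 2 passed both the test and 1.5-fold, against 4.19% of all, and of the 90 genes 1 did, against 4.06%. These 2 were the probe set of *Cox6b2* and a dim one of *Atp5g1*, whose blank arrays all lay under the limit of 50.

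The median log2 change over the 90 genes was 0.0478, close to the 0.0557 of all probe sets tested. By complex, the medians were 0.0444 for the 33 subunits of complex I, 0.0725 for the 4 of complex II, 0.0608 for the 8 of complex III, 0.0431 for the 16 of complex IV and 0.0513 for the 17 of complex V, and all 5 had the other sign, from -0.0529 to -0.0234, once each array was centred on its own median. The assembly factors stood at 0.128, and at 0.032 after centring. The counts depend on scaling as well: 8 higher and 2 lower became 3 and 4 with quantile normalization and 2 and 5 with centring, where the share of all called probe sets that were higher moved from 66.2% to 49.1% and 37.3%. *Cox6b2*, *Cox8c*, *Ndufb7* and *Ndufaf2* passed under all 15 alternatives that were run, while each of the other 6 genes passed under 5 to 7 of them, with no change of sign. With single arrays left out, *Ndufaf8* passed in none of the 7 fits (adjusted p from limma 0.0754 to 0.108). *Ndufb1*, *Uqcr11* and *Sdhaf1* lost the call without luciferase replicates 1, 2 or 4 or blank replicates 5 or 6, *Sdhaf3* without luciferase replicates 2, 3 or 4 or the same blank arrays, and *Atp5g1* without any array but blank replicate 7. Their adjusted p then reached at most 0.126 from limma, and their log2 changes stayed between 0.21 and 0.34.

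**Figure D1:**
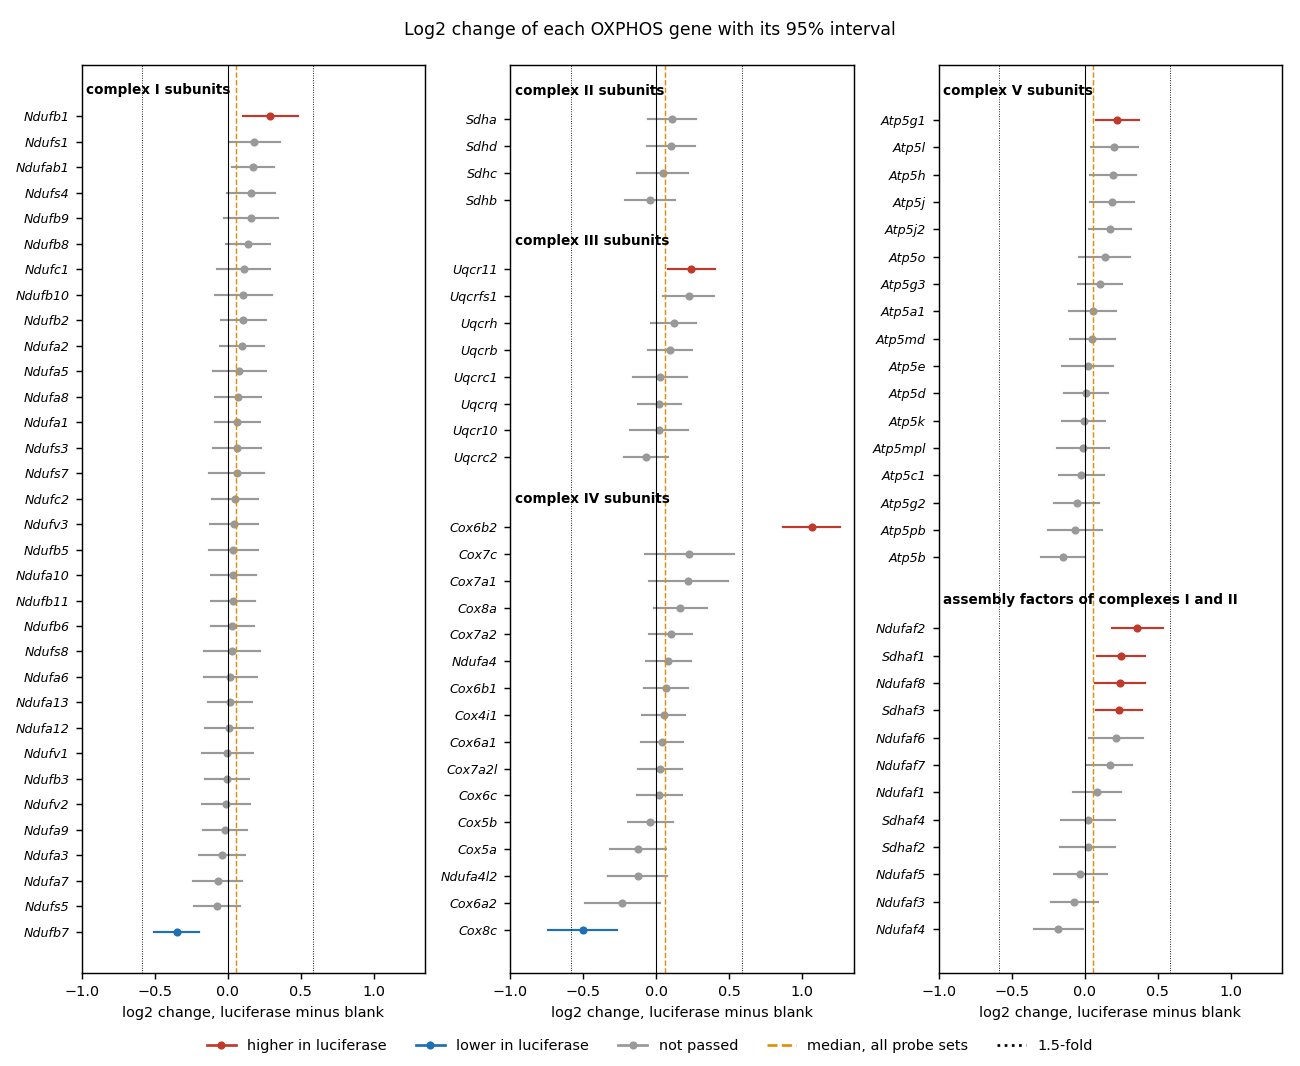
Log2 change of each of the 90 OXPHOS genes, luciferase minus blank (x axis), by complex, with the 95% interval from limma as a bar; colour gives the call at an adjusted p of 0.05, the dashed line the median of all probe sets (0.0557) and the dotted lines 1.5-fold. The intervals of 88 genes lie within 1.5-fold, *Cox6b2* stands far to the right at 1.06 and *Cox8c* to the left at -0.51.

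In complex I, 1 of 33 subunits rose, 1 fell and 31 did not pass (6.06% passed, against 25.4% of all genes). The groups did not overlap in 8 (against 37.5% of all genes). *Ndufb7*, an accessory subunit of the membrane arm, measured 2160.1, 2064, 1990.1 and 2049.7 across luciferase arrays and 2648, 2553 and 2703 across blank arrays. All 4 luciferase arrays lay below all 3 blank arrays. The level was 2066 ± 70.5 (SD, n = 4) against 2634 ± 75.9 (SD, n = 3), that is, a log2 change of -0.35 (SE 0.0684, adjusted p = 0.00755 from limma). Its other probe set changed by -0.22 on the log2 scale without passing (adjusted p = 0.0821 from limma), with luciferase arrays from 1191 to 1386 and blank arrays from 1401 to 1593. *Ndufb1*, another accessory subunit, measured 306, 286, 261 and 315 across luciferase arrays and 239, 229 and 248 across blank arrays. It rose by 0.29 on the log2 scale (SE 0.0843, adjusted p = 0.0344 from limma), and its groups did not overlap either. None of the core subunits that carry the flavin and the iron-sulphur clusters passed. Among them *Ndufs1*, the largest subunit, came nearest, with 1475 to 1621 on the luciferase arrays, 1283 to 1494 on the blank arrays and a log2 change of 0.18 (95% interval 0.00 to 0.36). *Ndufv1*, which binds NADH and the flavin, stood at 2266 ± 76.8 (SD, n = 4) and 2277 ± 186 (SD, n = 3). By their highest probe sets, the changes of *Ndufs3*, *Ndufs7*, *Ndufs8* and *Ndufv2* reached from -0.01 for *Ndufv2* to 0.06 for *Ndufs3*. Their further probe sets ranged from -0.19 to 0.07, both in *Ndufs8*, with -0.11 in *Ndufs7* and -0.10 in *Ndufv2*, and none passed.

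In complex II, which also serves the citric acid cycle and has no subunit from mitochondrial DNA, none of the 4 subunits passed in limma, and none had an unadjusted p under 0.05. Of all genes 25.4% passed. *Sdha*, the flavoprotein that oxidises succinate, stood at 3238 ± 120.3 (SD, n = 4) in luciferase and 3006 ± 178 (SD, n = 3) in blank cultures, a log2 change of 0.11 (95% interval -0.06 to 0.27). *Sdhb*, the iron-sulphur subunit, measured 4729, 5163, 4652 and 5243 against 5328, 4993 and 4969. Its groups overlapped, and its log2 change was -0.04. The membrane anchors *Sdhc* and *Sdhd* changed by 0.04 and 0.10, and the intervals of all 4 genes lay within 1.5-fold.

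In complex III, 1 of 8 subunits rose and 7 did not pass (12.5% passed, against 25.4% of all genes). The groups did not overlap in 4 (against 37.5% of all genes). *Uqcr11*, a small accessory subunit, measured 3931, 4024, 3639 and 4055 across luciferase arrays and 3391, 3224 and 3328 across blank arrays. Every luciferase array lay above every blank array, and the log2 change was 0.24 (SE 0.0716, adjusted p = 0.0382 from limma). *Uqcrfs1*, the Rieske iron-sulphur protein at which electrons leave coenzyme Q, had luciferase arrays from 3803 to 4159 and blank arrays from 3118 to 3604. Its log2 change of 0.22 did not pass (adjusted p = 0.0656 from limma). The 2 core proteins, *Uqcrc1* and *Uqcrc2*, changed by 0.03 and -0.07, with overlapping groups.

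In complex IV, 1 of 16 genes rose, 1 fell and 14 did not pass (12.5% passed, against 25.4% of all genes). The groups did not overlap in 5 (against 37.5% of all genes). *Ndufa4*, *Ndufa4l2* and *Cox7a2l* are counted here, since the *Ndufa4* protein belongs to cytochrome c oxidase and *Cox7a2l* helps to join complexes III and IV. *Cox6b2*, an isoform of subunit 6b best known from testis, measured 497, 579, 514 and 576 across luciferase arrays and 263, 241 and 273 across blank arrays. The lowest luciferase array thus lay far above the highest blank array. The level was 542 ± 42.2 (SD, n = 4) against 259 ± 16.4 (SD, n = 3), or 2.09-fold, a log2 change of 1.06 (SE 0.0861, 95% interval 0.87 to 1.26, adjusted p = 0.000184 from limma). *Cox6b2* was the only OXPHOS gene that passed both the test and 1.5-fold by its representative probe set, and its adjusted p stayed between 1.8e-05 and 0.0016 over the 15 alternatives. The widely expressed isoform *Cox6b1* measured 10718, 10611, 10789 and 11249 against 10744, 10159 and 10181. Its groups overlapped, and its log2 change was 0.07 (95% interval -0.09 to 0.22).

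*Cox8c*, an isoform of subunit 8 that is likewise known from testis, went the other way. It measured 222, 211, 235 and 203 across luciferase arrays and 303, 359.8 and 270.1 across blank arrays. The groups did not overlap, the blank arrays were the more spread, and the log2 change was -0.51 (SE 0.104, 95% interval -0.74 to -0.27, adjusted p = 0.00955 from limma). The common isoform *Cox8a* did not pass, with 6181 ± 358 (SD, n = 4) against 5522 ± 386 (SD, n = 3) and a log2 change of 0.16. *Cox4i1*, a regulatory subunit, stood at 8793 ± 191 (SD, n = 4) and 8497 ± 189 (SD, n = 3), a log2 change of 0.05. The subunits *Cox5a* and *Cox5b* changed by -0.13 and -0.04. *Cox6a2*, the heart and muscle isoform of subunit 6a, had luciferase arrays from 246 to 311 and blank arrays from 296 to 374, and its log2 change of -0.23 did not pass. *Ndufa4l2*, known as a gene induced by hypoxia, stood at 87.5 ± 8.39 (SD, n = 4) and 95.4 ± 4.12 (SD, n = 3) and did not pass. *Cox7a1*, the muscle isoform of subunit 7a, had group means under 50, at 45.6 and 39.3.

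In complex V, 1 of 17 genes rose and 16 did not pass (5.88% passed, against 25.4% of all genes). The groups did not overlap in 7 (against 37.5% of all genes). *Atp5g1* is 1 of the 3 genes that encode the same membrane ring subunit c with different import sequences. It measured 4414, 4402, 4222 and 4460.2 across luciferase arrays and 3790.0, 3676 and 3774 across blank arrays. Every luciferase array was above every blank array, with a log2 change of 0.22 (SE 0.0657, adjusted p = 0.0356 from limma). Its dim second probe set passed too (adjusted p = 0.00526 from limma), with 53.9 to 64.1 on the luciferase arrays and 32.8 to 45.9 on the blank arrays. All its blank arrays lay under the limit of 50, so it was tested only because of its luciferase arrays. Its call is therefore not counted as separate support for the rise of *Atp5g1*. *Atp5g2* and *Atp5g3* changed by -0.06 and 0.10 without passing. *Atp5b*, the catalytic beta subunit of the F1 head, measured 10044, 10573, 10013 and 10475 against 11447, 11277 and 11451. All luciferase arrays lay below all blank arrays, but the log2 change of -0.15 did not pass (adjusted p = 0.126 from limma). *Atp5a1*, the alpha subunit of the head, *Atp5c1*, the central stalk, and *Atp5o*, which joins the head to the side stalk, changed by 0.05, -0.02 and 0.13. *Atp5j2*, a membrane subunit, passed by its second probe set (log2 change 0.24, adjusted p = 0.0341 from limma) and not by the brighter one (0.17, adjusted p = 0.0827 from limma), and both had groups that did not overlap.

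Among the 12 assembly factors 4 rose, 8 did not pass (33.3% passed, against 25.4% of all genes) and the groups did not overlap in 7 (against 37.5% of all genes). With each array centred, *Ndufaf2* alone of these 4 passed, and *Ndufaf4* passed as lower (-0.28, adjusted p = 0.0161 from limma). *Ndufaf2*, a chaperone of a late step of complex I assembly, measured 270.4, 264, 241 and 279 across luciferase arrays and 216, 201 and 198 across blank arrays. The log2 change was 0.36 (SE 0.0783, adjusted p = 0.0118 from limma) with no overlap. *Ndufaf8*, another complex I assembly factor, measured 949, 954, 946 and 1069.5 against 843, 859 and 783. Its log2 change was 0.24 (adjusted p = 0.0476 from limma), and its second probe set passed too (0.36, adjusted p = 0.0229 from limma). *Sdhaf1* and *Sdhaf3*, which serve the maturation of the iron-sulphur subunit *Sdhb*, rose by 0.25 and 0.23 (adjusted p = 0.0347 and 0.0386 from limma). *Sdhaf1* stood at 519.9 ± 22.5 (SD, n = 4) against 438 ± 18.3 (SD, n = 3), while *Sdhb* itself changed by -0.04. *Ndufaf4* differed between its probe sets: the brighter one moved by -0.18 on the log2 scale without passing (adjusted p = 0.103 from limma), and the dimmer one fell by 0.33 on the log2 scale (adjusted p = 0.0164 from limma), with 229 to 258 on the luciferase arrays and 293 to 330.2 on the blank arrays.

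**Figure D2:**
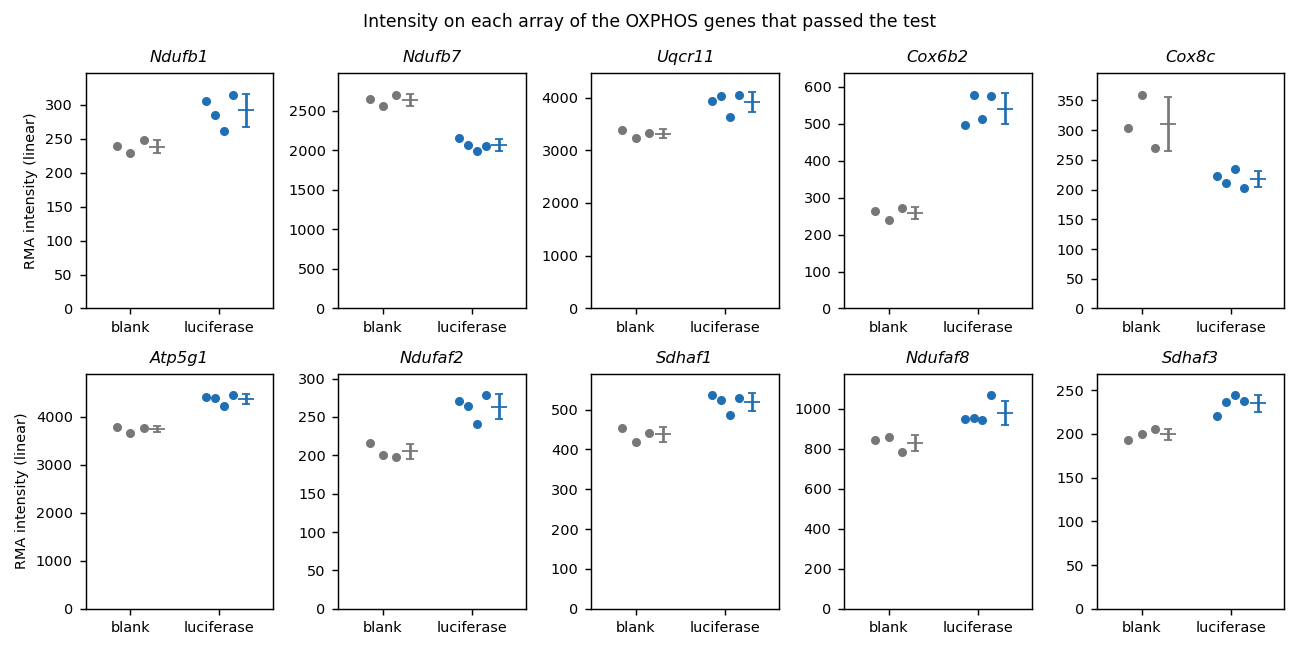
RMA intensity (linear, y axis from 0) on each of the 3 blank and 4 luciferase arrays for the 10 OXPHOS genes that passed at an adjusted p of 0.05; points are arrays in replicate order, with mean and SD drawn at their right. In all 10 genes the groups are separate, and *Cox6b2* shows the widest gap, 259 against 542.

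Isoforms of a subunit were compared with each other on the same arrays. *Cox7a2* was also compared with *Cox7a2l*, which helps to join complexes III and IV, and this pair is counted with the isoform pairs. A difference in scaling between arrays cancels in such a comparison up to its dependence on level. Of 10 pairs fixed, 8 had both genes measured, and each was tested with a two-sided exact permutation test over the 35 splits of the arrays, where p = 0.0286 is the smallest value possible. The change of *Cox6b2* exceeded that of *Cox6b1* (*Cox6b1* minus *Cox6b2*, -0.998; exact permutation p = 0.0286, adjusted over the 8 pairs 0.0571), and the groups did not overlap. The change of *Atp5g1* exceeded that of *Atp5g2* by 0.28, and that of *Atp5g3* exceeded that of *Atp5g2* by 0.16 (*Atp5g2* minus *Atp5g3*, -0.16), each with an exact permutation p of 0.0286, adjusted 0.0571. *Cox7a2* and *Cox7a2l* differed by 0.07 at the same p. *Ndufa4* minus *Ndufa4l2* was 0.21 and *Atp5g1* minus *Atp5g3* 0.12, with exact permutation p = 0.0571, adjusted 0.0762. *Cox6a1* minus *Cox6a2* was 0.27 (exact permutation p = 0.171), and *Cox7a1* minus *Cox7a2* 0.12 (exact permutation p = 0.486). After adjustment no pair passed 0.05 by this exact test, where 4 of the 8 had p = 0.0286 before it. With 8 pairs and so few splits, a pair alone at the smallest p could not pass, however large its difference. *Cox8a* minus *Cox8c*, a pair added after the values were seen, was 0.67 (exact permutation p = 0.0286, adjusted 0.0514 over 9 pairs).

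Luciferase replicate 3 was the lowest of the 4 luciferase arrays in 64 of the 90 OXPHOS genes (71.1%), while it was the lowest in 26.5% of all genes. Outside the 90 genes it was also lowest in some other assembly factors, such as *Surf1*, *Coa3* and *Uqcc3*, and in *Rpl4* of the cytosolic ribosome. In others, such as *Ttc19* and *Cox19*, it was not. Its share in other gene lists or at like intensity was not counted, so the order is not shown to be particular to OXPHOS genes. The median deviation of the 90 genes from their own mean was -0.03 on luciferase replicate 3 and 0.03, 0.04 and 0.06 on luciferase replicates 1, 2 and 4, against -0.01, -0.04 and -0.04 on blank replicates 5, 6 and 7. Not every gene followed this order: *Cox8c* was highest on luciferase replicate 3, and the main probe sets of *Cox5a* and *Atp5pb* were lower on luciferase replicates 2 and 4 than on 1 and 3, as were 8 of the 134 probe sets in all (5.97%, against 14.3% of all probe sets). In 60 of the 134, luciferase replicates 2 and 4 both lay above 1 and 3 (44.8%, against 18.4% of all probe sets). Luciferase replicate 3 stood among the blank arrays in the median of every subunit group. In complex I its median deviation of -0.04 was below those of blank replicates 5 and 7, at -0.01 for both. Over all probe sets tested it was 0.01, beside 0.02, 0.03 and 0.02 on the other luciferase arrays. These arrays were counted after their values were seen, and the counts are a description.

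**Figure D3:**
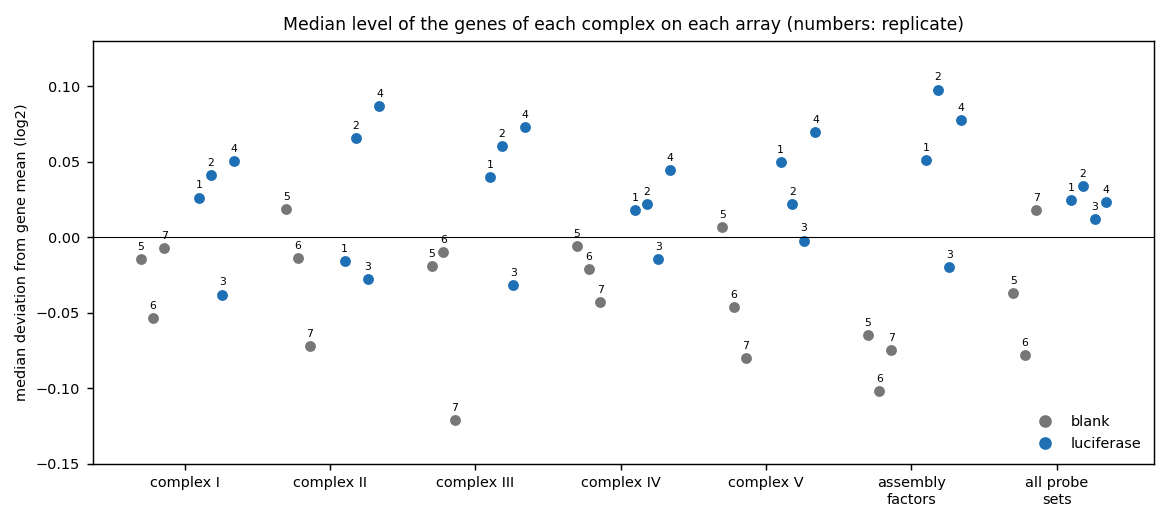
Median over the genes of each complex of the log2 deviation from each gene's mean over the 7 arrays (y axis), for the blank arrays (grey, replicates 5 to 7) and the luciferase arrays (blue, replicates 1 to 4), beside the same over all probe sets tested. Luciferase replicate 3 is the lowest luciferase array in every group of OXPHOS genes, at -0.04 in complex I, but not far from the others over all probe sets.

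Probe sets of the same gene did not always move together between arrays. Of the 39 genes with several probe sets tested, all passed in 2 (*Atp5g1* and *Ndufaf8*) and some passed in 3 (*Atp5j2*, *Ndufaf4* and *Ndufb7*), and the changes of the probe sets of a gene spanned a median of 0.1 on the log2 scale. For *Atp5g1* this count includes the dim probe set whose blank arrays all lay under the limit of 50. In 28 genes with 2 probe sets at a mean of 500 or more, the difference between them had a median SD of 0.0739 over the luciferase arrays. It was largest in *Ndufb6*, a complex I subunit, with an SD of 0.197. Here one probe set measured 3816, 3933, 3732 and 3947 on the luciferase arrays and the other 3932, 3455, 3696 and 3001. *Cox6c*, a complex IV subunit, followed with an SD of 0.187 and values of 8043, 7957, 7489.5 and 7968 for one probe set and 4315, 3789, 3935 and 3216 for the other. In both genes one probe set was lowest on luciferase replicate 4 and next lowest on replicate 2, while the other was not. *Cox5a* had a log2 change of -0.13 by its brighter probe set and 0.13 by the other, and neither passed. These genes were chosen for their spread after the values were seen, and the cause was not tested.

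**Figure D4:**
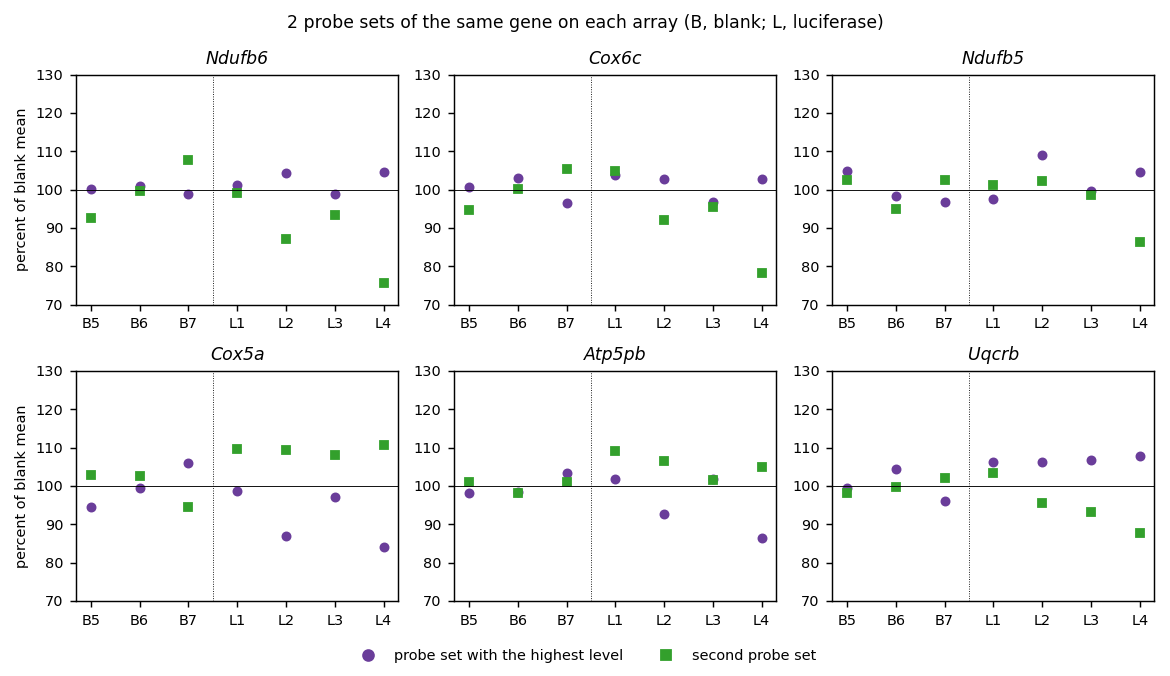
Intensity of 2 probe sets of each of 6 OXPHOS genes as percent of the blank mean of that probe set (y axis), on blank replicates 5 to 7 and luciferase replicates 1 to 4 (x axis); circles are the probe set with the highest level and squares the next. In *Ndufb6* and *Cox6c* the second probe set is lowest on luciferase replicate 4 while the first stays near 100.

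Other genes of the pathway were read from lists, beside which the 25.4% of all genes that passed should be kept in view. Of the subunits from mitochondrial DNA, *ND5* of complex I was measured, with 8072, 6723, 8443 and 8189 across luciferase arrays and 6519.5, 6396 and 6846 across blank arrays. Its log2 change of 0.25 did not pass (adjusted p = 0.0745 from limma). Among 17 genes of electron carriers and coenzyme Q synthesis, 2 rose and 15 did not pass, with a median change of 0.07. Those that rose, *Etfdh* (0.35) and *Etfa* (0.29), bring electrons from fatty acid oxidation to coenzyme Q, while cytochrome c (*Cycs*) and cytochrome c1 (*Cyc1*) changed by -0.05 and -0.16 without passing. Among 33 other assembly factors 3 rose (*Coa6* by 0.48, *Uqcc3* by 0.42 and *Cox19* by 0.35 on the log2 scale), 3 fell (*Pet100* by 0.36, *Bcs1l* by 0.30 and *Ttc19* by 0.28), and the median was 0.06.

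Of 18 regulators of mitochondrial biogenesis 7 rose and 11 did not pass, and their median change was 0.13. *Ppargc1a*, a coactivator that turns on mitochondrial genes, measured 877, 787, 871 and 950.2 across luciferase arrays and 669, 466 and 628 across blank arrays. Its groups did not overlap, and it rose by 0.58 on the log2 scale (SE 0.125, adjusted p = 0.0113 from limma). *Esrrg*, a nuclear receptor that works with it, rose by 0.35. Its probe set was dim, with 76.7 to 85.8 on the luciferase arrays and 61.3 to 67.5 on the blank arrays. *Tfam*, which packs and transcribes mitochondrial DNA, rose by 0.28. *Nrf1*, a factor that binds promoters of OXPHOS genes, changed by 0.09 without passing. Whether the regulators changed more than the subunits was not tested, and with each array centred 3 of the 18 passed as higher. Among 12 genes of ATP export, porins and ATP synthase inhibition 3 rose (*Ckmt1*, *Slc25a5* and *Ppif*) and the inhibitor *Atpif1* changed by 0.04 without passing, and with centring none rose and 1 fell. Of 76 genes of the mitochondrial ribosome 13 rose and 3 fell, with 4 and 6 after centring. Of 42 genes of the cytosolic ribosome 1 rose and of 46 proteasome genes none did by limma's adjusted p (3 at an unadjusted p of 0.05), with medians of 0.03 and 0.05 near that of the OXPHOS genes.

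Astrocyte markers moved with the group. Of 11 astrocyte genes 6 were higher in luciferase cultures and 5 did not pass, *Gfap* the most (log2 change 1.19, adjusted p = 0.000598 from limma), and their summed intensity was 31390 to 34110 across luciferase arrays and 24100 to 26590 across blank arrays. Of 11 neuron genes 1 was higher, *Slc17a7*. Of 8 microglia markers 2 reached an intensity of 50, and their sums overlapped, from 172 to 205 on the luciferase arrays and from 195 to 280.4 on the blank arrays. Of 5 vascular and meningeal markers measured 3 were lower and 1 higher. In bulk RNA, fewer cells of a type and less RNA per cell cannot be told apart, and the part of these cell types in the changes of *Cox6b2*, *Cox8c*, *Ndufb7*, the assembly factors and the regulators was not tested.

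**Figure D5:**
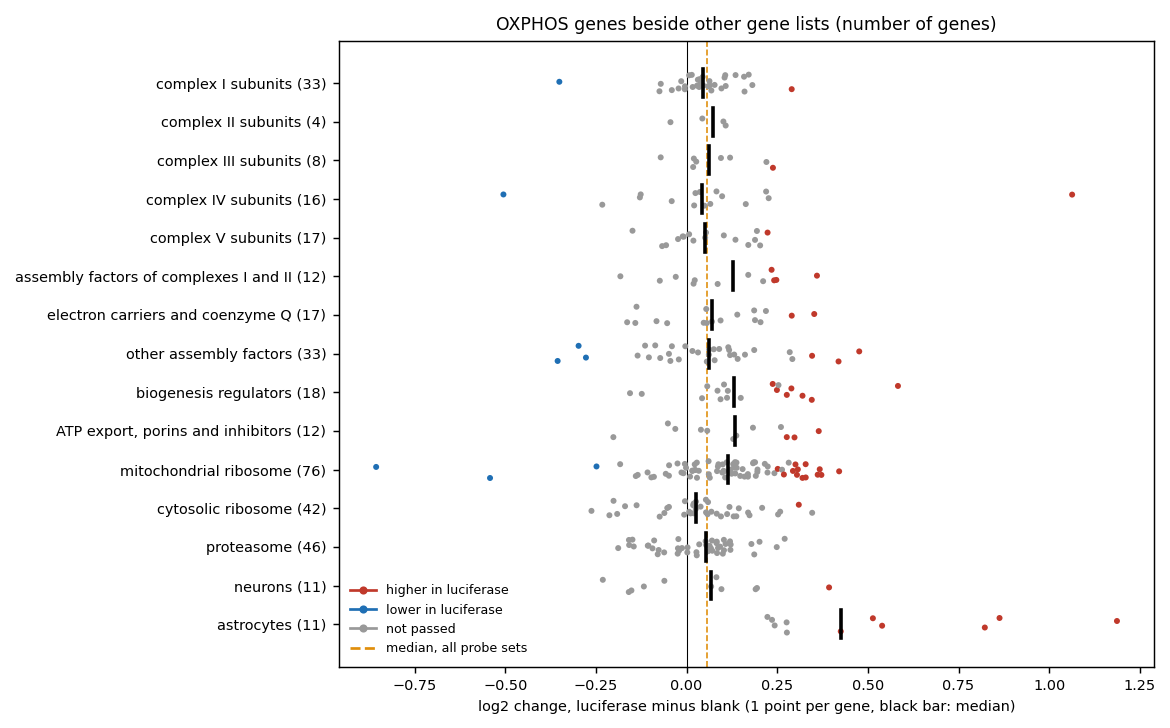
Log2 change, luciferase minus blank (x axis), of each gene of the OXPHOS complexes, of other mitochondrial lists, of the cytosolic ribosome and the proteasome and of the neuron and astrocyte markers (y axis, number of genes in brackets); points are genes coloured by call at an adjusted p of 0.05, black bars are list medians, and the dashed line is the median of all probe sets. The medians of complexes I to V lie between 0.04 and 0.07, and that of the astrocyte markers at 0.43.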

How the data were processed

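RNA of 7 cultures was measured on Affymetrix Mouse 430_2 arrays. The authors normalized the scans with RMA (its version and the set of arrays normalized together are not given in the sources used here), which they deposited as intensity values on a linear scale, 45101 probe sets by 7 arrays, from 4.69 to 23763. The labels name Trizol for extraction and the methods another kit. Groups came from the treatment labels. The blank columns were moved up by 1 row, 64 control and 2441 _x probe sets were left out, and 22748 probe sets at 50 or more on any array were tested as log2 values with limma 3.58.1 in R 4.3.3 (luciferase minus blank, no covariates, Benjamini-Hochberg adjustment over all of them). Gene symbols came from the array annotation, and all 90 matched RefSeq by gene ID. Isoform pairs were tested with two-sided exact permutation tests over 35 splits. The members and lists were chosen with earlier results of these data known. Under the naming rule fell up to 3 rises and 3 falls per complex, isoform pairs, core subunits, genes whose probe sets disagree, and in each other list the 2 largest rises and falls with *Ppargc1a*, *Tfam*, *Nrf1*, *Cycs*, *Cyc1* and *Atpif1*. Cell type markers, *ND5*, *Ppif*, *Cox19*, *Ttc19* and the genes of probe set pairs with a wide spread were named after their values were seen. The lists of oligodendrocyte markers (1 of 6 higher) and dividing cells (0 of 4 by limma, 0 at an unadjusted p of 0.05) are not described further. The calculations were tested on simulated data. Alternatives were the level filter, _x probe sets kept, quantile normalization, centring, trend and robust variance, array weights, the mean over probe sets, and leaving out each array. The number of arrays limits the precision. Some genes are not reported here.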

Additional observations from a re-analysis of the deposited data

Results flagged for a closer look

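The 4 luciferase values of 43 OXPHOS genes and of the medians of the complexes, 49 groups in all, were searched for an array far from the others, and chance flags about 1 in 20 such groups. In 1 group an array stood apart: *Ndufaf8* on luciferase replicate 4, at 1070 where the other luciferase arrays lay between 946 and 954. The gap was larger than the SD of the blank arrays, 39.7. The other 3 luciferase arrays also lay above the highest blank array, 859. Without luciferase replicate 4 the log2 change of *Ndufaf8* was 0.20 in place of 0.24 and did not pass (adjusted p = 0.108 from limma).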

How the results depend on the processing

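The 8 OXPHOS genes higher in luciferase cultures became 2 with no level filter, 3 with quantile normalization, 2 with each array centred, 14 with trend and robust variance and 16 with array weights, and between 2 and 10 with single arrays left out (3, 2, 5 and 2 without luciferase replicates 1, 2, 3 and 4, and 2, 2 and 10 without blank replicates 5, 6 and 7). The 2 lower genes became 3 with trend and robust variance, with array weights and with the mean over probe sets. Their number was 4 with quantile normalization and 5 with centring, and 2 in every fit with an array left out. With the mean over probe sets 12 genes were higher, and 16.7% of OXPHOS genes passed, beside 29.1% of all genes. The share of all genes that passed, 25.4% in the main fit, moved too. With no level filter it was 14.3%, beside 4.26% of OXPHOS genes, and with array weights 43.6%, beside 21.1%. Quantile normalization gave 23.9% beside 7.78%, centring 25.2% beside 7.78%, and trend and robust variance 27.6% beside 18.9%. Without blank replicate 7 it was 32.6%, beside 13.3%, and with the other arrays left out 14.8% to 18%, beside 4.44% to 7.78%. The 2 probe sets past 1.5-fold became 1 with a level filter of 100, with array weights and with the mean over probe sets. They became 3 with quantile normalization, and 1 to 3 with arrays left out (1 without blank replicate 6). Centring moved the medians to -0.0515, -0.0234, -0.0352, -0.0529 and -0.0447 for complexes I to V and 0.032 for the assembly factors, for which quantile normalization gave 0.053. With arrays left out these medians stayed between 0.0322 and 0.066, 0.0502 and 0.0898, 0.0448 and 0.099, 0.0359 and 0.054, 0.0361 and 0.076, and 0.107 and 0.155. With quantile normalization some isoform differences passed at an adjusted exact permutation p of 0.0381 and others did not. Those that passed were *Cox6a1* minus *Cox6a2* 0.362, *Cox6b1* minus *Cox6b2* -0.894 and *Cox7a2* minus *Cox7a2l* 0.104. Also passing were *Atp5g1* minus *Atp5g2* 0.313, *Atp5g2* minus *Atp5g3* -0.206 and *Ndufa4* minus *Ndufa4l2* 0.275. *Atp5g1* minus *Atp5g3* (0.107, adjusted exact permutation p = 0.196) and *Cox7a1* minus *Cox7a2* (0.142, adjusted exact permutation p = 0.4) did not pass. *Cox8a* minus *Cox8c* was 0.769 (adjusted exact permutation p = 0.0367). That pair was added after the values were seen, so its p is a description and not a test. With arrays left out *Cox6b1* minus *Cox6b2* stayed between -1.05 and -0.954 and *Cox8a* minus *Cox8c* between 0.583 and 0.716. Of 942 values of single genes named under the alternatives, 827 kept their side of the threshold, 100 lost the call, 12 of these with centring, and 15 gained it, and no value that had passed changed sign. The causes were not tested. Scaling sets the zero of all small changes here: the median of all probe sets was 0.0557, and -0.0403 after centring. No paired analysis was possible because the groups share no replicate numbers.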
